A study of Mus musculus with 8 samples.

Results

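Cathepsins B, C, D, H, L, Z and E (Ctsb, Ctsc, Ctsd, Ctsh, Ctsl, Ctsz, Ctse), the membrane proteins Lamp1 and Lamp2 and prosaposin (Psap) were followed across the livers of 8 mice. These 10 genes were chosen as lysosomal genes, and each was read from the brightest probe set that the array's annotation gives to that gene alone. All 10 had such a probe set, of 8251 genes named in this way on the array, and all 10 passed the filter on dim probe sets. The mice were female Ames dwarfs (df/df), whose pituitary makes no growth hormone, thyrotropin or prolactin, and all 8 received 30% less pelleted food than dwarf females with free access to it. Their age at death was 24 to 26 months, and liver RNA of each was hybridised to its own Affymetrix U74Av2 array. They form 1 group that shares genotype, sex, tissue and diet. Every comparison is between individual livers, and none measures diet or genotype, since freely fed dwarfs and non-dwarf mice were not analysed here.

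Lysosomes are acidic vesicles in which proteins, lipids and sugars taken up by a cell, or delivered by autophagy, are broken down. Ctsb, Ctsc, Ctsh, Ctsl and Ctsz are cysteine proteases of the papain family, Ctsd and Ctse are aspartic proteases, Lamp1 and Lamp2 coat the inner face of the lysosomal membrane, and Psap is cut into the saposins that help lipid hydrolases reach their substrates. Hepatocytes hold many lysosomes, and so do the macrophages of the liver. The transcription factor TFEB and its relatives bind CACGTG-type motifs upstream of many lysosomal genes.

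A macrophage score was computed for each liver, the mean over 15 tested marker genes of the log2 intensity minus that gene's mean over the mice. It was 1.71 in mouse 6, 0.97 in mouse 8, between -0.26 and 0.06 in mice 1, 2 and 3, and between -0.85 and -0.78 in mice 4, 5 and 7. Of 20 macrophage markers listed, 18 had a probe set and 15 were bright enough. None of the 10 lysosomal genes is among these 15. The summed intensity of the 15 ran from 6282.5 in mouse 4 to 37171 in mouse 6, 5.92-fold, with Mpeg1 the brightest (683 to 6915). Aif1 (637 in mouse 6 and 502 in mouse 8, median 142) and Adgre1 (563.5 and 324, median 154) passed the filter only through those 2 mice. Their part of the score's height in mice 6 and 8 was fixed by that choice. Clec4f, a receptor of resident Kupffer cells, was an exception in the list, lowest in mouse 1 (524) and highest in mouse 2 (1362), with mouse 6 at 1221 and mouse 8 at 747. The part of macrophage number in the results given next was not tested. An interferon gamma score (15 genes, none of them lysosomal) followed the macrophage score closely (Pearson r = 0.957, exact two-sided permutation p = 0.000298; Spearman rho = 0.952, p = 0.00114; n = 8), also without mice 6 and 8 (r = 0.957). The 2 scores therefore cannot be told apart in these mice. Iigp1 was the brightest gene of the interferon score. Another of its genes, Cxcl10 (624 in mouse 6 and 517.5 in mouse 8, median 139.5), passed the filter only through those 2 mice. The T and NK cell score (3 of 12 markers tested) was also highest in mice 8 (1.80) and 6 (1.74). It was carried by Ccl5, the brightest (2069 in mouse 6 and below the floor in 4 mice), and Ltb (824 in mouse 8), while Cd4 was highest in mouse 3 (345) and read 235 in mouse 6, under its median of 271. Among the untested markers, Thy1 (140.8, median 25) and Gzma (142, median 41.4) were highest in mouse 6. Cd3e was highest in mouse 1 (113) and Cd3g in mouse 2 (58.3), while Cd3d, Cd8a and Cd8b1 lay below the floor in all 8 mice. Of 8 neutrophil markers 2 were tested: Csf3r was highest in mouse 6 (1596, median 805), and S100a8 passed the filter only through mouse 6 (556, at most 146 elsewhere), so a score of the pair was high there by that choice. Of the untested ones, S100a9 (222) and Ngp (45.6, median 33.4) were highest in mouse 6, and Elane was above its median there (172.2 against 151.9). Mpo (26.7), Cxcr2 (28.7) and Camp (154.5) were below their medians in mouse 6. The erythroid score (3 of 7 markers tested, Hba-a1 the brightest) was lowest in mice 6 (-0.52) and 8 (-0.35). The endothelial score (4 of 8, Eng the brightest) was lowest in mouse 8 (-0.69) and near 0 in mouse 6 (-0.04). The only tested cholangiocyte marker, Cd24a, gave 0.70 in mouse 6 and 0.32 in mouse 8, its highest values. The stellate cell and matrix score (8 of 10 tested, Dcn the brightest) was highest in mouse 6 (0.29). Col1a1 (969), Col3a1 (591), Des (189) and Lum (284) were highest there, and Reln (759) was just above its median. Dcn (4216), Col1a2 (1417) and Timp1 (598) were under their medians in mouse 6. The B and plasma cell score (4 of 8, Igha the brightest) ran from -0.16 in mouse 8 to 0.20 in mouse 4. The hepatocyte score (10 tested, Alb the brightest) stayed between -0.18 in mouse 6 and 0.21 in mouse 3. In liver tissue, fewer cells of a type and less RNA per cell cannot be told apart.

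Ctsc differed most between the livers. This dipeptidyl peptidase activates the serine proteases of neutrophils, mast cells and cytotoxic lymphocytes. Its intensity was 229 in mouse 7, a median of 344 and 2649 in mouse 6, with 1624 in mouse 8 and at most 581 in the other 6 mice. Mice 6 and 8 stood well above the rest, an 11.6-fold range in all (mean 794 ± 880, SD, n = 8). Its SD on the log2 scale was 1.30, higher than in 99.0% of the 4869 genes tested. A weaker probe set for Ctsc, too dim to test, was again highest in mouse 6 (92.8) and mouse 8 (69.9), against a median of 49.3. The dimmest lay below the floor of 37.2 in 7 of 8 mice.

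Psap had the next steepest slope. It read 2858 in mouse 4, a median of 3549 and 6461 in mouse 6, with 5668 in mouse 8 and 4407.5 in mouse 3. The 3 livers with the highest interferon scores were the 3 highest for Psap, and the range was 2.26-fold (mean 4110 ± 1308). A dimmer Psap probe set read 450 in mouse 4 and 836 in mouse 1, and another ran from 9.8 in mouse 5 to 419 in mouse 8. Neither followed the brightest set closely (r = 0.425 with exact permutation p = 0.297, and r = 0.298 with p = 0.483).

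Slopes on the macrophage score were fitted for all 6265 tested probe sets with limma, in log2 intensity per log2 unit of score, and adjusted by Benjamini-Hochberg over all of them. Of the 10 genes, each read from its brightest probe set, 3 rose with the score at an adjusted p under 0.05 (Ctsc, Psap and Ctse) and 0 fell. Over all probe sets 5.55% rose and 3.06% fell (8.62% in either direction), the score's own markers included. In the permutation test of r 2 of the 10 rose (Ctsc and Psap) and 0 fell, beside 2.97% and 1.37% of all probe sets. The dimmest tested Ctse probe set, described below, fell in both tests (limma adjusted p = 0.0038, permutation adjusted p = 0.0362). The median slope of the 10 was 0.12, against -0.01 over all genes tested. Ctsc had a slope of 1.38 ± 0.11 (SE; 95% interval 1.13 to 1.62; limma adjusted p = 5.79e-05). Its correlation with the score was r = 0.975 (exact two-sided permutation p = 7.44e-05, adjusted over all probe sets 0.0288) and rho = 0.976 (p = 0.000397), and r was 0.843 without mice 6 and 8. Psap had a slope of 0.45 ± 0.06 (0.31 to 0.58; limma adjusted p = 0.000919), with r = 0.964 (exact p = 0.000322, adjusted 0.0288), rho = 0.976 (p = 0.000397) and r = 0.819 without mice 6 and 8. Ctse had a slope of 0.32 ± 0.09 (0.12 to 0.51; limma adjusted p = 0.0484). In the permutation test its adjusted p was 0.117 (r = 0.802, exact p = 0.0146; rho = 0.762, p = 0.0368; r = 0.746 without mice 6 and 8). With mice 6 and 8 both left out, 0 of the 10 genes passed the limma test (Ctsc slope 0.93, adjusted p = 0.451; Psap slope 0.42, adjusted p = 0.658), and over all probe sets 18 rose and 0 fell. With the mean of all tested probe sets of a gene 1 passed (Ctsc), where Psap had a slope of 0.35 (adjusted p = 0.0964).

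**Figure D1:**
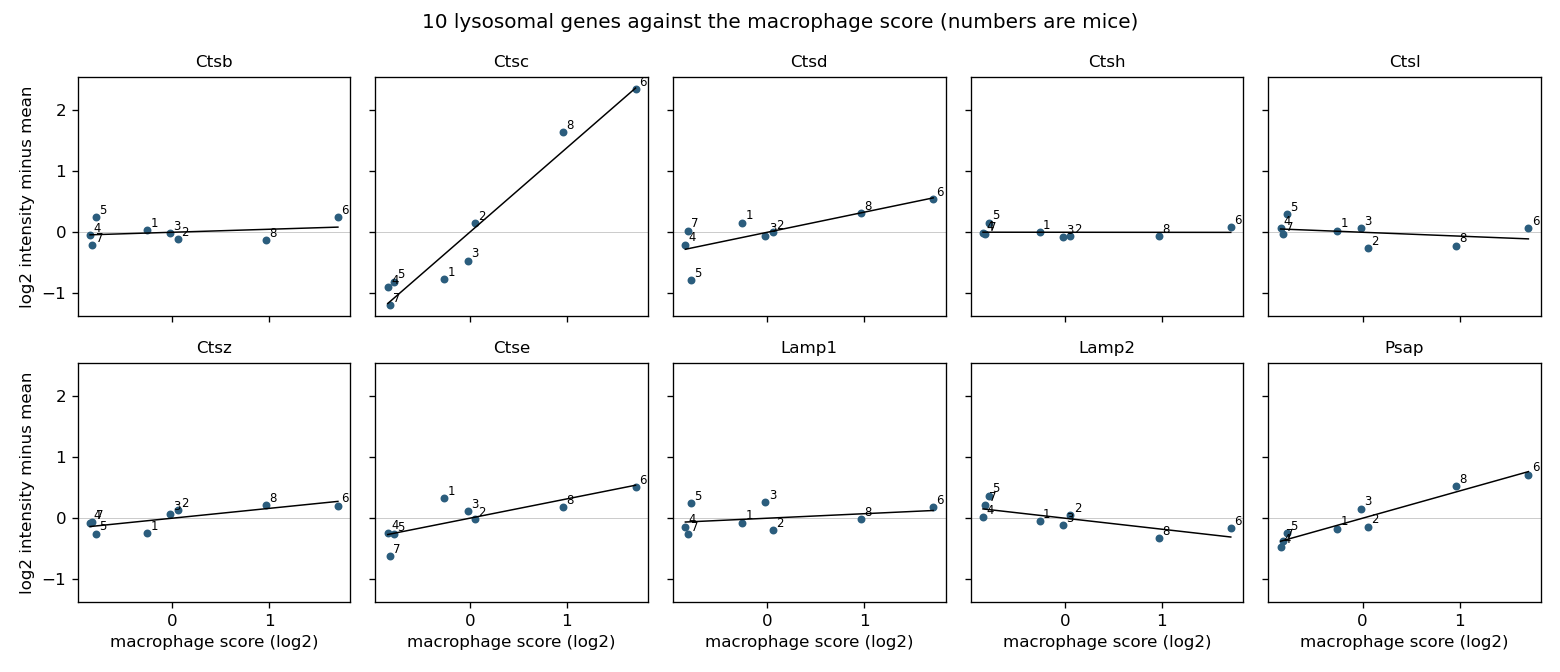
Each panel plots log2 intensity minus the gene's mean (vertical) against the macrophage score (horizontal, log2) in the 8 mice, which are numbered, with the limma slope as a line. Ctsc is the steepest at 1.38, Psap follows at 0.45, and Ctsh at -0.00 is flat.

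Ctsd and Ctsz had positive slopes that did not pass. Ctsd, the main aspartic protease of lysosomes, read 1835 in mouse 5, a median of 3193 and 4604 in mouse 6, with 3912 in mouse 8. Mouse 5 lay apart below and mice 6 and 8 above. Its slope was 0.33 ± 0.09 (0.12 to 0.54; limma adjusted p = 0.0574; r = 0.773, exact p = 0.0224; rho = 0.690, p = 0.0694). It passed without mouse 5 (slope 0.24, adjusted p = 0.0328), without mouse 7 (0.38, 0.0413) and with the stricter filter (0.36, 0.0293), and r was 0.488 without mice 6 and 8. Ctsz, a carboxypeptidase, read 1936 in mouse 5, a median of 2319 and 2687.5 in mouse 8, with 2668 in mouse 6 and 2538 in mouse 2. Its slope was 0.16 ± 0.06 (0.03 to 0.29; limma adjusted p = 0.132; r = 0.787, exact p = 0.0175; rho = 0.786, p = 0.0279; 0.592 without mice 6 and 8).

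Ctsb, Ctsh, Ctsl and Lamp1 showed no slope that passed, though small slopes were mostly missed by this test in simulated data. Ctsb, which cuts proteins as an endopeptidase and from their carboxyl end, read 6707 in mouse 7, a median of 7610 and 9194 in mouse 6, with 9184 in mouse 5. Its slope was 0.05, with a 95% interval of -0.10 to 0.20 (limma adjusted p = 0.744). Ctsh, an aminopeptidase, was among the steadiest genes on the array, from 3288 in mouse 3 through a median of 3440.0 to 3891 in mouse 5. Its range was 1.18-fold, 1.33% of genes had a smaller SD, and its slope was -0.00 (-0.12 to 0.12; adjusted p = 0.995), with a sign that turned under quantile normalization (0.04). Ctsl, an endopeptidase, read 4905 in mouse 2, a median of 6050 and 7188 in mouse 5, with a slope of -0.06 (-0.22 to 0.09; adjusted p = 0.669). Lamp1 read 5414 in mouse 7, a median of 6314.5 and 7810 in mouse 3, with a slope of 0.07 (-0.10 to 0.25; adjusted p = 0.650). These upper limits lie below the slopes of Ctsc and Psap when each gene is read from its brightest probe set, though the differences between genes were not tested. Dimmer sets did not all keep that order. Those of Ctsb had slopes of 0.27 (0.04 to 0.51; limma adjusted p = 0.140) and 0.10 (-0.14 to 0.34; 0.671). Those of Psap had slopes of 0.14 (-0.07 to 0.35; 0.446) and 0.45 (-0.32 to 1.22; 0.498). The r values with the score were 0.270, -0.012, -0.333 and 0.329 for Ctsb, Ctsh, Ctsl and Lamp1 (exact permutation p = 0.533, 0.978, 0.423 and 0.426; rho 0.238, -0.167, -0.214 and 0.357).

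Lamp2, which also serves chaperone-mediated autophagy, had a negative slope that did not pass. Its brightest probe set read 3485 in mouse 8, a median of 4316 and 5636 in mouse 5, with 3887 in mouse 6 and 5096 in mouse 7. Mice 6 and 8 were the lowest here. The slope was -0.18 ± 0.07 (-0.33 to -0.03; limma adjusted p = 0.124; r = -0.753, exact p = 0.0327; rho = -0.690, p = 0.0694; -0.654 without mice 6 and 8). A second Lamp2 probe set of nearly equal brightness read 3760 in mouse 8 and 5117 in mouse 4, and it did not track the first (r = 0.208, exact permutation p = 0.624; rho = 0.381). Its slope was -0.07 (-0.20 to 0.07; adjusted p = 0.577).

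**Figure D2:**
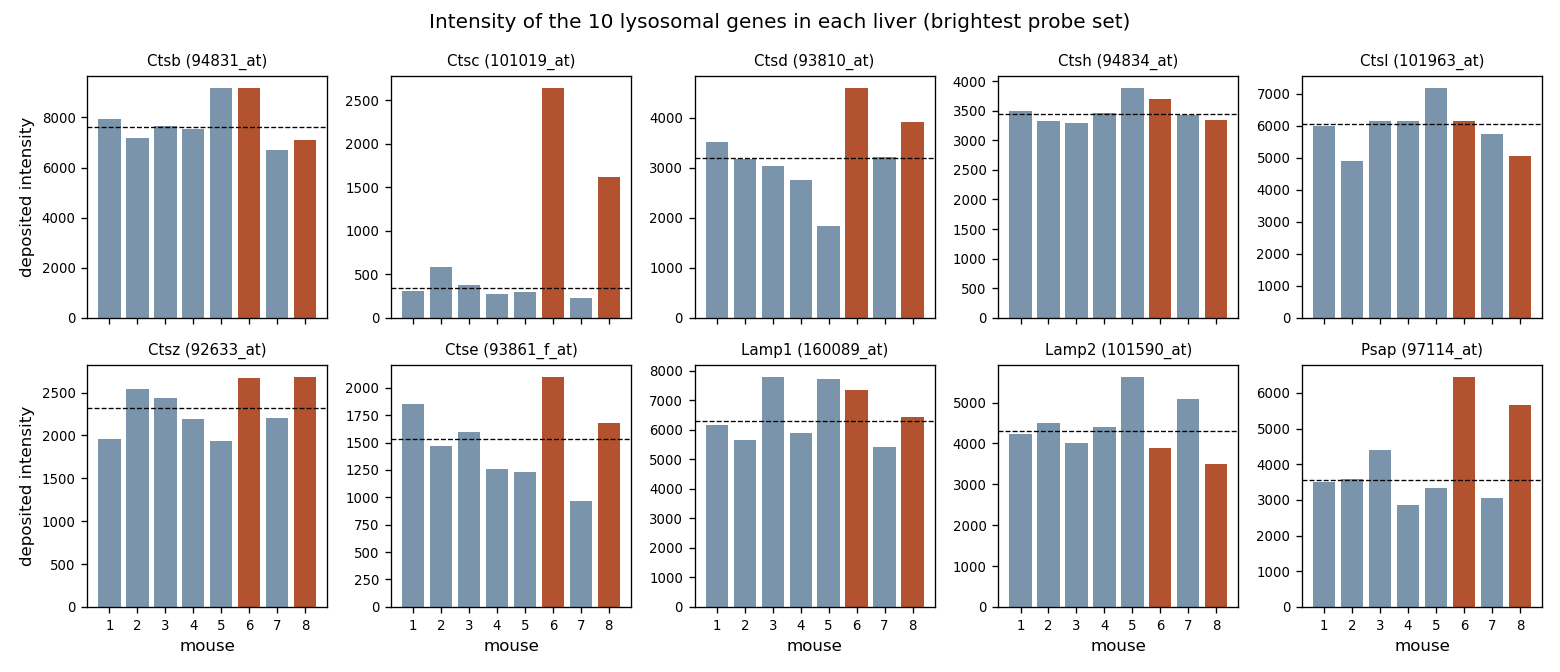
Bars show the deposited intensity of each gene's brightest probe set (vertical axes from 0, a scale per gene) in mice 1 to 8, with the median as a dashed line; the red bars are mice 6 and 8, which had the highest macrophage scores. Ctsc reaches 2649 and 1624 in those mice against at most 581 in the others, while Ctsh stays between 3288 and 3891 in all 8.

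The Ctse values depended on the probe set. Ctse, a protease of gastric and immune cells rather than a general lysosomal enzyme, had 3 tested probe sets. The brightest read 964 in mouse 7, a median of 1533 and 2103 in mouse 6, with 1853 in mouse 1. The next read 867.5 in mouse 3 and 1523 in mouse 6. Both were made from the same GenBank record (M17327), and the suffix f in the name of the brightest marks probes that match a family of related sequences. By general knowledge of that record, which the files used here do not describe, it is a provirus of endogenous murine leukaemia virus. The dimmest came from another record (AJ009840) and read 385 in mouse 6, a median of 707 and 896 in mouse 4, with 501 in mouse 8 and 502 in mouse 3. It was lowest where the brightest set was highest (r = -0.822, exact two-sided permutation p = 0.0127; rho = -0.857, p = 0.0107; adjusted p = 0.0889 over the 7 pairs of probe sets compared; r = -0.708 without mice 6 and 7). Its slope on the macrophage score was -0.45 ± 0.08 (-0.62 to -0.29; limma adjusted p = 0.0038; r = -0.929, exact p = 0.000918; rho = -0.929, p = 0.00223; -0.810 without mice 6 and 8). The rise given above for Ctse is therefore that of the brightest set (M17327), and the AJ009840 set fell. Of the 8 mice left out in turn, 7 ended the call of the brightest set when absent (every mouse except mouse 1), with adjusted p up to 0.277 without mouse 6.

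**Figure D3:**
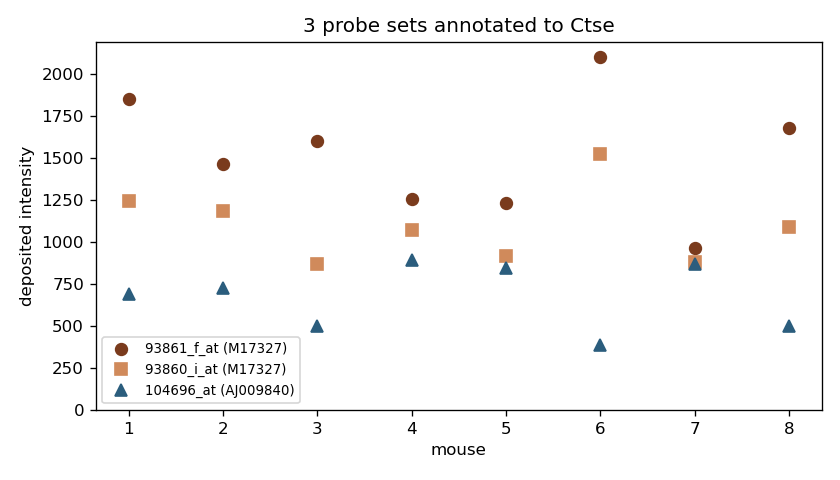
Deposited intensity (vertical, from 0) of the 3 probe sets annotated to Ctse in mice 1 to 8 (horizontal). Circles (the brightest set, M17327) peak at 2103 in mouse 6, where triangles (the AJ009840 set) are at their lowest, 385.

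The other probe sets gave mixed results. For Ctsb, one tested set (334.7 in mouse 5 to 706 in mouse 6) had r = -0.074 with the brightest (exact permutation p = 0.860), and another (189 in mouse 2 to 352 in mouse 6) had r = 0.490 (p = 0.219). A further Ctsb set, too dim to test, ran from 32.1 in mouse 3 to 109 in mouse 8. Of the 7 pairs compared, both of those with an exact p under 0.05 were of Ctse, and 0 passed after adjustment over the 7. Ctsd, Ctsh, Ctsl, Ctsz and Lamp1 had 1 probe set each, so their values have no such check.

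Spread between mice was also tested for each probe set singly, as the variance of log2 values against that expected at its brightness (limma, one-sided F test). After adjustment this test recovered none of the probe sets made more variable in simulated data of this size, so its counts of 0 among the 10 genes and 0 (0%) among all 6265 probe sets were set by the design and say nothing about spread. At an unadjusted p under 0.05 there was 1 of the 10 (Ctsc, limma adjusted p = 0.343) against 6.38% of all probe sets. The median log2 SD of the 10 was 0.21, against 0.23 over all genes tested.

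On the interferon gamma score the same 3 genes passed (limma). Over all probe sets 5.36% rose and 3.02% fell with it. Psap had a slope of 0.28 ± 0.04 (adjusted p = 0.00128; r = 0.961, exact permutation p = 7.44e-05; rho = 0.976; r = 0.917 without mice 6 and 8). Ctsc had a slope of 0.79 ± 0.13 (adjusted p = 0.00608; r = 0.893, exact p = 0.00117; r = 0.704 without mice 6 and 8). Without mouse 6 the Ctsc call ended (slope 0.63, adjusted p = 0.0687), as it did with no filter on brightness (0.0683). Ctse read from its brightest set had a slope of 0.21 ± 0.05 (adjusted p = 0.0251), lost without mouse 4 (0.0510), 6 (0.157) or 7 (0.0742). Its AJ009840 set had a slope of -0.30 ± 0.04 (adjusted p = 0.00115; r = -0.971, exact p = 0.000347).

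Among themselves the 10 genes, with Ctse read from its brightest set, had correlations of both signs. Over their 45 pairs the median r across the 8 mice was 0.289, against 0.002 over all pairs of tested genes, and 16 pairs (35.6%) had r above 0.5 against 14.5% of all pairs, while 7 (15.6%) had r below -0.5 against 14.1%. Ctsc and Psap had the highest (r = 0.932), and Ctsd and Lamp2 the lowest (r = -0.793). Lamp2 had r between -0.793 and -0.700 with each of Ctsc, Ctsd, Ctsz and Psap. The signs for Ctse depended on its probe set. With Lamp2 r was -0.739 for the brightest set and 0.774 for the AJ009840 set, and with Psap it was 0.767 and -0.965. Over the 45 pairs the AJ009840 set gave a median r of 0.057, with 14 pairs above 0.5 and 11 below -0.5. The 36 pairs without Ctse had a median of 0.210, with 13 and 6. Ctsb, Ctsh, Ctsl and Lamp1, picked out after their values were seen, correlated with each other at r from 0.459 to 0.850. Mouse 5 was highest for Ctsh and Ctsl and next to highest for Ctsb and Lamp1, while it was lowest for Ctsd and Ctsz. Mouse 5 also had the array least like the others among dim probe sets (mean correlation 0.736 with the other 7 arrays, the next lowest being 0.780). The part of that array in these values was not tested.

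Over all pairs of tested genes 14.5% had r above 0.5, and the highest r was 0.999. The tested genes most like each member over the 8 mice (highest r, n = 8, members left out) could therefore be expected to have a high r for any gene. For Ctsc they were Cyba (r = 0.982), a subunit of the phagocyte NADPH oxidase that ran from 264.5 in mouse 7 to 2300 in mouse 6, Lgals3bp (0.980) and AI413582 (0.976). For Psap they were Dynll1 (0.994), a dynein light chain read from a family probe set, Tyrobp (0.988), a signalling adaptor of myeloid and NK cells and one of the score's markers, and Samhd1 (0.987), a dNTP hydrolase. For Ctsd they were Edem2 (0.990), Rin2 (0.980) and Rhog (0.968), all lowest in mouse 5 and highest in mouse 6. For Ctsz they were Akap1 (0.942), Ppp4c (0.931) and Ube2l6 (0.924), the last an ISG15-conjugating enzyme. For Ctsb they were Rnf19b (0.939), Mpp1 (0.930) and Scamp3 (0.919). For Ctsh they were Pnp (0.963), the ribosomal protein gene Rps3 (0.960) and Qrich1 (0.958), and for Ctsl Foxo3 (0.978), a transcription factor, the ribosomal protein gene Rpl8 (0.961) and Ewsr1 (0.943). All 6 of these were highest in mouse 5. For Lamp1 they were Phtf1 (0.945), Taf8 (0.937) and Tpmt (0.924). For Lamp2 they were Retreg1 (0.994), a receptor for autophagy of the endoplasmic reticulum that ran from 3741 in mouse 8 to 5422 in mouse 5, Fam107b (0.972) and Ppm1a (0.963). For Ctse read from its brightest set they were Slc48a1 (0.957), the family probe set named for H2-K2 (0.948) and D17H6S56E-5 (0.946), and for the AJ009840 set Dhrs4 (0.986), Ssbp1 (0.977) and the mitochondrial peroxidase Prdx3 (0.973). Samhd1 (611 in mouse 6 and 494 in mouse 8, median 183) and D17H6S56E-5 (826 and 346, median 168) passed the filter only through those mice. Their likeness to Psap and to the brightest Ctse set was partly fixed by that choice.

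Other lysosomal genes were read from 7 lists of 112 genes, of which 83 had a probe set and 69 were tested. On the macrophage score 7 of the 69 rose and 2 fell (limma), beside 5.55% and 3.06% of all probe sets. In the exact permutation test of r, 2 of the 69 rose (Ctss, adjusted p = 0.0288, and Laptm5, 0.0463) and 0 fell, beside 2.97% and 1.37%. The other 7 had adjusted permutation p from 0.0549 (Lgmn) to 0.117 (Npc2). Other cathepsins and legumain gave 2 of 5. Ctss, the cathepsin of antigen-presenting cells that trims the MHC class II invariant chain, read 742 in mouse 4, a median of 1473 and 8372 in mouse 6, with 5132 in mouse 8. Its slope of 1.39 ± 0.07 (limma adjusted p = 6.18e-06; r = 0.993, and 0.968 without mice 6 and 8) stood beside 1.38 for Ctsc. Lgmn, the asparaginyl protease legumain, read 523 in mouse 5 and 2059 in mouse 6 (slope 0.62 ± 0.10, adjusted p = 0.00213). Of 3 tested cathepsin inhibitors 1 rose, Cstb, which blocks cysteine cathepsins, from 2646 in mouse 5 to 5846 in mouse 8 (slope 0.45 ± 0.08, adjusted p = 0.00412).

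Lysosomal membrane and lipid handling genes gave 4 rises and 1 fall among 12 on the macrophage score, beside 5.55% and 3.06% of all probe sets. Laptm5, a membrane protein of blood cells read from a family probe set, ran from 681 in mouse 5 to 2550 in mouse 6 (slope 0.74 ± 0.09, limma adjusted p = 0.000516). Slc11a1, the phagosomal metal transporter of macrophages, read 161 in mouse 5 and 613 in mouse 6 (0.69 ± 0.12, adjusted p = 0.00404), and the tetraspanin Cd63 read 201 in mouse 5 and 697 in mouse 8 (0.65 ± 0.11, adjusted p = 0.00443). Npc2, which hands cholesterol to Npc1, rose less (0.31 ± 0.08, adjusted p = 0.0479). Npc1, the cholesterol exporter of the lysosome, fell, from 3467 in mouse 5 to 1972 in mouse 6 and 1986 in mouse 8 (-0.26 ± 0.07, adjusted p = 0.0364). Without mice 6 and 8 the r of these 5 was between -0.213 (Npc1) and 0.649 (Laptm5).

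None of the 14 tested acid hydrolases, 14 V-ATPase subunits (the proton pump of the lysosome) or 8 sorting genes passed on the macrophage score, with median slopes of 0.08, 0.04 and 0.01. Over all probe sets 5.55% rose and 3.06% fell, so a lack of calls does not set lists this short apart. Arsa, an aryl sulfatase, had the widest range of the hydrolases (367 in mouse 5 to 957.5 in mouse 4), Atp6v0e of the pump (402 in mouse 3 to 909.5 in mouse 5) and Ap1s1, an adaptor subunit, of the sorting genes (703 in mouse 5 to 1730 in mouse 8). Of 13 autophagy genes 1 fell, Gabarapl1, an ATG8 protein of the autophagosome, from 8399 in mouse 5 to 5597 in mouse 6 and 5094 in mouse 8 (-0.24 ± 0.07, limma adjusted p = 0.0476). Their median slope was -0.09. On the interferon score 7 of the 69 genes rose and 2 fell (limma), beside 5.36% and 3.02% of all probe sets. Among them were Acp2, an acid phosphatase, and Atp6v0a2, a pump subunit (limma adjusted p = 0.0295 and 0.0307, slopes above and below 0). Neither passed on the macrophage score. A difference in slope between lists was not tested.

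**Figure D4:**
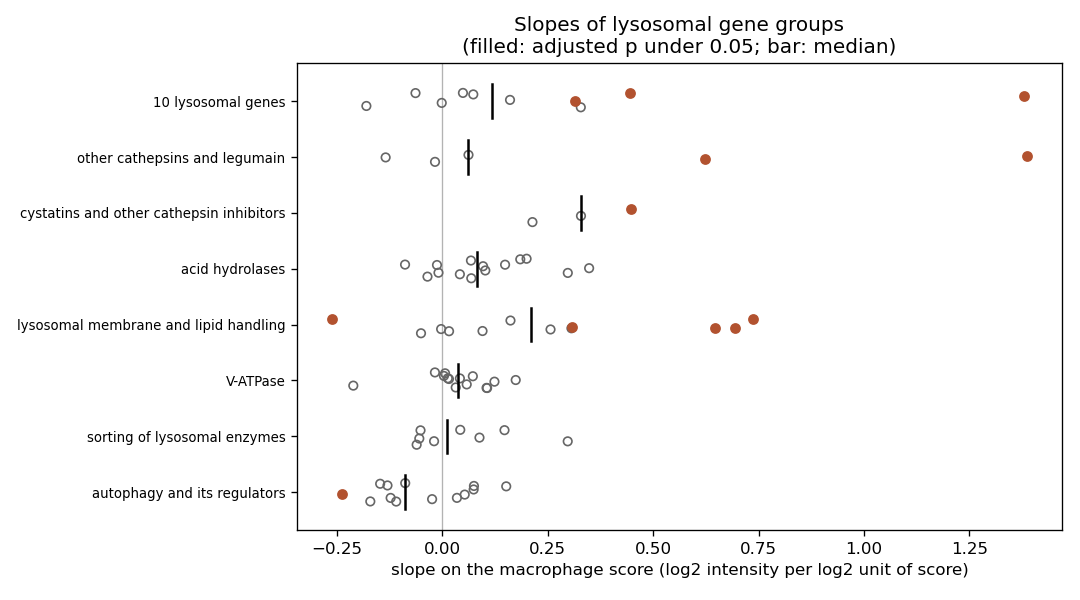
Each point is the slope of a tested gene on the macrophage score (horizontal, log2 intensity per log2 unit of score), by list (vertical), filled where the limma adjusted p is under 0.05, with the median as a bar. The slopes of Ctsc (1.38) and Ctss (1.39) lie far to the right, while the 14 V-ATPase subunits stay near 0 with a median of 0.04.

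Sequences upstream of the start were available for 7 of the 10 genes, and Ctsb, Ctsh and Ctse were without an entry. In the 250 bases before each start, CACGTG, the core of the TFEB-type motif, was searched on both strands, with the longer TCACGTGA, which contains it, and with an interferon-type motif, GAAA repeated after a gap of 2 bases. CACGTG occurred 4 times before Lamp1 (from -61 to -15 relative to the start), 2 times before Ctsd (-245 and -98) and 1 time before Ctsl (-236), against 6.02% of all 32851 windows of that length with at least 1 match. TCACGTGA occurred before Ctsd (0.785% of windows) and the GAAA repeat before Lamp1 (2.98%). These windows of 4 genes are shown because Ctsc and Psap passed on the macrophage score while Ctsd and Lamp1 did not and hold the most CACGTG matches. They come from RefSeq (GRCm38.p6), 5′ to 3′ on the gene's strand, with the matches in capitals.
Ctsc: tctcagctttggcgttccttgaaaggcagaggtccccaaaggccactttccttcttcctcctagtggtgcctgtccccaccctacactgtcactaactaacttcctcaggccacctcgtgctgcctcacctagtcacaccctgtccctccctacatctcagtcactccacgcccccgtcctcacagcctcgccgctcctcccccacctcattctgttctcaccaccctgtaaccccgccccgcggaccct
Psap: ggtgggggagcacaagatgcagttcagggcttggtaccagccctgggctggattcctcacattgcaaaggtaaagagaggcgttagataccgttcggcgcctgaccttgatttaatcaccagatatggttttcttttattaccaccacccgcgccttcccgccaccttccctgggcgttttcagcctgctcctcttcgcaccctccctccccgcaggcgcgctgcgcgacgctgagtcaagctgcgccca
Ctsd: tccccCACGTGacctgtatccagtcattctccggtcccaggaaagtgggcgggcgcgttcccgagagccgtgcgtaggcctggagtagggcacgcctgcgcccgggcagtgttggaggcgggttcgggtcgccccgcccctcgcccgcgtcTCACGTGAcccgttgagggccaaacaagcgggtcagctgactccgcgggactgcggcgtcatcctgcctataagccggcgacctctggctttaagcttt
Lamp1: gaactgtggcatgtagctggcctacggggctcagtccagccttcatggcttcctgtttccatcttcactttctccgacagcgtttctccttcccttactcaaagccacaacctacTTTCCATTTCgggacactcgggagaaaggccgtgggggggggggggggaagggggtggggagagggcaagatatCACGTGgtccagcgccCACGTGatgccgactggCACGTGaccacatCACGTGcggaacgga
They lie at chr7:88277835-88278084 (+), chr10:60277378-60277627 (+), chr7:142387828-142388077 (-) and chr8:13158911-13159160 (+). None of the 3 motifs was found before Ctsc or before either of the annotated starts of Psap. The same was true of Ctsz and Lamp2, which did not pass on the macrophage score. A relation between motifs and slopes was not tested. A match is only a stretch of these letters, and binding was not measured.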

How the data were processed

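RNA from 8 livers was measured on Affymetrix U74Av2 arrays, 1 per mouse, with a Hewlett-Packard GeneArray scanner, per the labels. The authors deposited 1 intensity per probe set and array, linear and above 0. The software behind these values is not stated in the labels used here. The arrays were already scaled (trimmed means varied by 0.00455%) and were used as deposited. Values under 37.2, the 25th percentile, were set to it, then converted to log2, and tested where the mean was at least 165.2 (the median), leaving out 66 control probe sets. That left 6265 probe sets and 4869 genes. Each gene was read from its brightest probe set, and levels of different genes were not compared. Of 231 listed genes 186 had a probe set.

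Slopes were fitted with limma 3.58.1 (lmFit, eBayes with trend and robust) in R 4.3.3, and spread with squeezeVar (robust, 3.80 prior degrees of freedom), with Benjamini-Hochberg adjustment at 0.05. On simulated data the slope test recovered most steep slopes and few shallow ones, so a slope that did not pass may have been missed, and the adjusted spread test recovered none. Correlations were tested over all 40320 orders of the mice. Separate animals are labelled, but the number of arrays limits precision. Named pathway genes were, per list, up to 3 past the threshold in each direction by slope, else the widest in range; of each cell list the brightest; of each member the 3 most correlated genes. Npc2, Acp2, Atp6v0a2, Clec4f, Aif1, Adgre1 and Cxcl10 were named after their values were seen. So were the T cell, neutrophil and stellate cell markers and the flagged genes. Members and lists were chosen with earlier results of these data known. Columns without a sample numbered 0. A further promoter motif is not reported here. The proteins of these genes were not used here.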

Additional observations from a re-analysis of the deposited data

Results flagged for a closer look

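Of 134 values examined (tested probe sets of the 10 genes, other lysosomal genes, their nearest genes and list scores), 8 had 1 mouse whose gap to the next, as a share of the range, exceeded Dixon's 95% critical value, which chance passes in about 1 of 20. None was a probe set of the 10 genes. Mouse 6 stood highest for the neutrophil score (0.667 of the range; a mean of 2 genes, of which S100a8 passed the filter only through its value in mouse 6), for Man2b1, a mannosidase (0.651, 3228 against at most 2451), for Atp6ap1, a V-ATPase accessory protein (0.576, 958.5 against at most 769), and for Cst3, the secreted cystatin C (0.531, 6424 against at most 4773.5). Mouse 5 stood lowest for the transporter Abca2 (0.706, 124 against at least 323), the V-ATPase subunit Atp6v0a1 (0.636, 205 against at least 304.5) and the sorting adaptor Gga1 (0.569, 359 against at least 525.5). Mouse 3 stood lowest for Hexa, a hexosaminidase subunit (0.592, 648 against at least 776).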

How the results depend on the processing

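On the macrophage score the count of the 10 genes past the threshold was 3, and from 2 to 4 under the other settings, except 1 with a gene's probe sets averaged and 0 without mice 6 and 8 (an alternative added after seeing the data, as was reading Ctse from its AJ009840 set). With 1 mouse left out it was from 2 to 3, always with Ctsc (slope 1.31 to 1.43) and Psap (0.42 to 0.48). On the interferon score the count was 3, with 1 for averaged probe sets, 1 with no filter, 0 without mice 6 and 8, and from 1 to 3 with 1 mouse left out. The adjusted spread test recovered no simulated signal under the main settings, so its counts there say nothing about spread. It was not simulated under the other settings. At an unadjusted p under 0.05 the spread test's count over all probe sets was 400, and 204 with the stricter filter. Pairs of the 10 genes with r below -0.5 numbered 7, and 11 with Ctse read from its AJ009840 set. Signs turned for genes that did not pass: Ctsb without mice 6 and 8 (-0.0504 on the macrophage and -0.00671 on the interferon score; -0.0709 to 0.0973 and -0.0267 to 0.0578 with 1 mouse left out), and Ctsh with no filter (0.00112) and quantile normalization (0.0425, and 0.0147 on the interferon score; -0.0685 to 0.0260 and -0.0380 to 0.00834 with 1 mouse left out). Ctse turned to -0.45 and -0.30 when read from its AJ009840 set. With quantile normalization the agreement of probe sets turned for Ctsb (r = 0.350) and Lamp2 (r = -0.016), and 2 pairs still had p under 0.05. Counts over all probe sets were smaller for the macrophage score (348 rising, 192 falling) with the permutation test (186 and 86), the stricter filter (193 rising), and without mouse 4 (109 falling), mouse 6 (136 and 32) or mouse 8 (229 and 75). For the interferon score (336 and 189) they were smaller with the permutation test (217 and 107), no filter (201 and 69), the stricter filter (178 rising), without mouse 1 (120 falling), mouse 4 (95 falling), mouse 6 (144 and 20) or mouse 8 (192 and 44), and without mice 6 and 8 (32 and 1). Fewer mice entered where mice were left out, and fewer probe sets with the stricter filter. The permutation test used the same mice and probe sets, and more probe sets entered with no filter. The cause of the smaller counts was not tested. No paired analysis was possible because the labels give 1 group.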
